A study of Homo sapiens with 7 samples.

Results

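The HOX genes were taken as all protein-coding GENCODE 44 genes whose symbol is HOX followed by A, B, C or D and a number, which gave 39 genes of 19626. The rule used symbols and no measured value, though this gene family was picked with earlier results of these data known. The question was where Rb, the retinoblastoma protein encoded by RB1, was detected by CUT&RUN at these genes in the ZR-75-1 cell line, which was derived from a breast cancer and carries the oestrogen receptor. CUT&RUN sequences the fragments that an antibody-tethered nuclease cuts free around a bound protein. Parental cells were kept for 4 days in 500 nM palbociclib, an inhibitor of CDK4 and CDK6, or in DMSO, and each condition gave 2 Rb libraries. RB1 KO cells, in which RB1 was disrupted by CRISPR and which the methods describe as clones from single sorted cells, gave 1 Rb library with DMSO and 1 with palbociclib. A non-targeting IgG2a antibody gave 1 library from parental cells with palbociclib. Each library pools many cells, so few cells with much Rb at a site and many cells with little cannot be told apart.

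HOX genes encode homeodomain transcription factors that set the identity of tissues along the body axis. They lie side by side in 4 clusters, in an order that matches where along the axis each is used, and are numbered by paralogue group, the low numbers acting at the head end and the high numbers at the tail end and in the limbs. Many of their promoters are CpG islands, and in cells that do not use a HOX gene these islands are typically held silent by Polycomb complexes, while Trithorax complexes keep active ones open. Rb binds DNA through partners, above all the E2F factors at promoters of cell cycle genes, and CDK4 and CDK6 release it by phosphorylation.

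The group 13 genes stand at the tail-end edge of each cluster. To show what a CpG-rich but uncalled HOX promoter looks like, the 200 bases before the canonical transcription start site (TSS) of HOXD13 and HOXA13 are printed 5′ to 3′ on the strand of the gene, from hg38, with each CpG in capitals. They lie at chr2:176092521-176092720 on the plus strand for HOXD13 and chr7:27200092-27200291 on the minus strand for HOXA13.
HOXD13: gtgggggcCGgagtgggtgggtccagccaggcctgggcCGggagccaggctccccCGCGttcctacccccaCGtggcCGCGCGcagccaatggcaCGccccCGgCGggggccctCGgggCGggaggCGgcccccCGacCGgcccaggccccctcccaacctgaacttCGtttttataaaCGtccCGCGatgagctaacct
HOXA13: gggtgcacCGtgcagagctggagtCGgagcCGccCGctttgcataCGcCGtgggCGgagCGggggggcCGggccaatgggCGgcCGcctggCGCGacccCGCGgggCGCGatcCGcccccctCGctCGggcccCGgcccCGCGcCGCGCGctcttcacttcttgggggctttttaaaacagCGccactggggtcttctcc
The HOXD13 stretch held 20 CpGs at 74.0% GC and the HOXA13 stretch 27 CpGs at 75% GC. Neither gene had a promoter peak in any of the 7 lists.

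The deposited data are peak lists, 1 for each library, so a promoter is either overlapped by a called peak or not, and no signal is given where nothing was called. The 2 DMSO lists held 922 and 753 peaks on chromosomes 1 to 22 and X, and the 2 palbociclib lists 8314 and 8171. The RB1 KO lists held 4 and 5 peaks, and the IgG2a list 1724. The files give no read totals. Among peaks where the local background was lowest, the smallest pileup seen was 6 and 7 overlapping fragments in the DMSO lists and 5 in each palbociclib list, and an uncalled promoter means that Rb was not detectable there at this depth. No expression values are among the files, so which HOX genes these cells transcribe and the identity of the line were not checked.

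With DMSO, no HOX promoter was called in either parental library. A promoter ran from 2000 bp before to 500 bp after any TSS of a protein-coding transcript. Over all genes, 5.10% of promoters were called in DMSO replicate 1, 4.20% in replicate 2 and 2.75% in both. For the HOX genes this was 0 of 39 in both lists, which allows a share of up to 7.69%. The limit lies above the 2.75% of all genes, so DMSO libraries at this depth could not show HOX promoters to be called less often than others.

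With palbociclib, HOXC13 was called in both replicates and HOXB7 in replicate 2. The numbers of HOX promoters called were 1 in replicate 1 and 2 in replicate 2, against 0 and 0 with DMSO. The groups did not overlap, with means of 1.5 ± 0.707 and 0 ± 0 (SD, n = 2 each), and the two-sided exact permutation test gave p = 0.33, the smallest that 2 libraries against 2 allow. Over all genes, 39% of promoters were called in palbociclib replicate 1, 38.3% in replicate 2 and 34.0% in both, and 28.1% were gained, meaning that the consensus peak met no peak of either DMSO list. Of the HOX genes, 1 of 39 was called in both lists (2.56%, exact 95% binomial interval 0.0649% to 13.5%) and the same gene was the 1 gained. The upper end of that interval lies below the 34.0% of all genes called in both lists. HOX genes made up 0.199% of protein-coding genes, 0.0131% of the promoters called in replicate 1 and 0.0266% of those called in replicate 2. Genes are not replicates and neighbouring promoters can share a peak, so the intervals cover counting error only and no test between gene lists was run.

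The palbociclib lists were about as long as each other and much longer than the DMSO lists, and list length moved with the HOX calls. With the 4 parental lists limited to the 753 peaks of lowest q-value, no HOX promoter was called in any of the 4 libraries. Of other genes, 3.52% were still called in both palbociclib lists. A share of 0 of 39 allows up to 7.69%, so lists of this length could not set the HOX genes apart from the others. The part of list length in the difference between treatments was not tested further.

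HOXC13, a regulator of hair and nail differentiation, stood at the edge of its cluster and had a clear peak just upstream of its start. The gene (ENSG00000123364.5) lies at chr12:53938831-53946544 on the plus strand. In palbociclib replicate 1 the peak covered 599 bp at chr12:53938363-53938961, with its summit 187 bp before the TSS and a fold enrichment of 9.94. In replicate 2 it covered 507 bp at chr12:53938483-53938989, with its summit 136 bp before the TSS and a fold enrichment of 12.3. Fold enrichment is the ratio of the pileup of fragments to the local background, each plus 1. The 2 summits were thus close to each other, and the joined region of 627 bp was the single stretch of HOX promoter under a consensus peak. The pileup at the summit was 33 fragments over a background of 2.42 in replicate 1 and 37 over 2.08 in replicate 2, with −log10 q of 22.7 and 29.5. No peak was called there in the DMSO, RB1 KO or IgG2a lists. The summits lay in sequence annotated as intergenic for protein-coding genes and inside the body of the antisense gene HOXC13-AS, but not at its promoter.

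Among promoter peaks of the same libraries, the HOXC13 peak was above the middle. It stood higher than 68.8% of them in replicate 1 and 78.3% in replicate 2, where the medians were 7.26 and 7.21. By fold enrichment it ranked 2433 of 8314 peaks in replicate 1 and 1656 of 8171 in replicate 2. The local background at its summit was 1.67 and 1.33 times the median of its list. The call in both lists held with a narrower promoter window, with the canonical TSS, with the summit required inside the promoter, with a −log10 q of at least 5 and with a fold enrichment of at least 5.

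**Figure D1:**
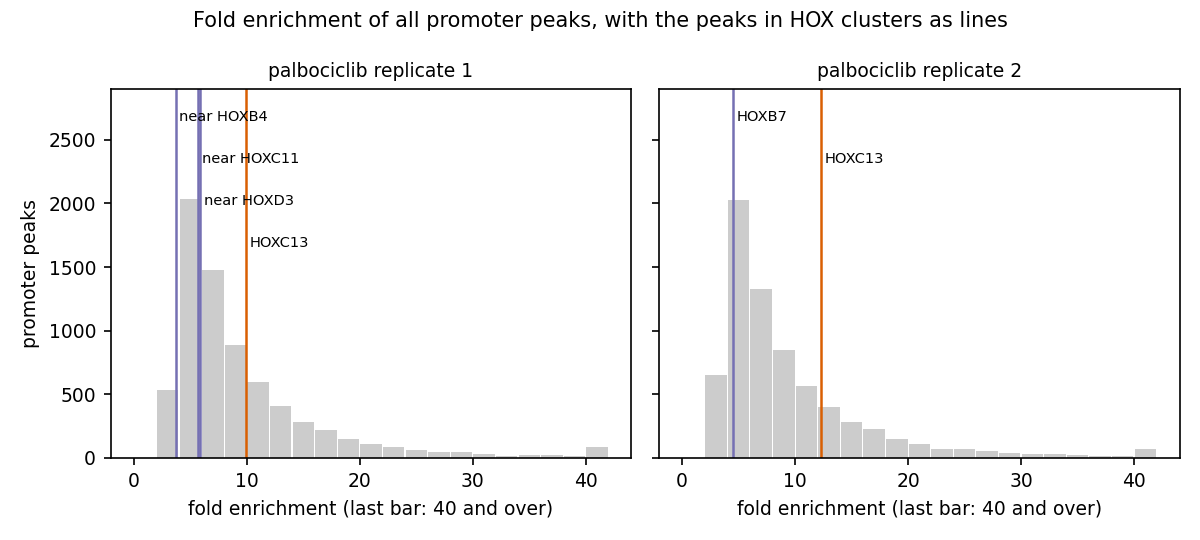
Number of promoter peaks (y axis) by fold enrichment (x axis, ratio without unit, last bar 40 and over) in palbociclib replicates 1 and 2, with vertical lines at the peaks in HOX clusters. The HOXC13 lines at 9.94 and 12.3 lie to the right of the tallest bar, and the other lines, from 3.74 to 5.90, lie in or next to it.

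HOXB7, which codes for a trunk-level homeodomain protein, was called in palbociclib replicate 2 alone, and the call was weak. Its peak covered 317 bp at chr17:48610369-48610685 with a fold enrichment of 4.54, a pileup of 13 fragments over a background of 2.08 and a −log10 q of 4.20. The summit lay 526 bp past the TSS, in an intron of HOXB7. The peak stood higher than 16.9% of the promoter peaks of its library. It was no longer counted when the summit had to lie in the promoter, when the window was 1000 bp before to 100 bp after the TSS, or when the −log10 q or the fold enrichment had to be at least 5.

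Outside the promoters, 3 peaks lay within the clusters, all in palbociclib replicate 1. The first covered 264 bp at chr17:48576819-48577082 in coding sequence of HOXB4, 1332 bp past its TSS, with a fold enrichment of 3.74 and a pileup of 10. The second covered 377 bp at chr12:53974627-53975003 in an intron of HOXC11, 1596 bp past its TSS, with a fold enrichment of 5.71 and a pileup of 13. This peak met the promoter of HOTAIR, the long non-coding RNA transcribed from within the HOXC cluster. The third covered 171 bp at chr2:176140703-176140873 in an intron of HOXD3, 3832 bp past its TSS, with a fold enrichment of 5.90 and a pileup of 11. All 3 lay below the median of 7.26 for promoter peaks of that library. HOTAIR was the 1 gene called in a palbociclib list out of 57 genes of the clusters that are not protein-coding, and none was called in both. Over all genes of that kind, pseudogenes included, 6.36% were called in replicate 1, 6.17% in replicate 2 and 5.38% in both.

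The numbers of such peaks were 3 and 0 with palbociclib and 0 and 0 with DMSO, RB1 KO and IgG2a lists having none either. The groups overlapped, with means of 1.5 ± 2.12 and 0 ± 0 (SD, n = 2 each) and p = 1.00 in the two-sided exact permutation test. With such peaks in 1 library alone, every split gives the same absolute difference, so this p was fixed and the test could not decide. Leaving out palbociclib replicate 1 brought the difference to 0. Peaks of 1 list only were common at such folds in these libraries: 42.2% of the replicate 1 peaks with a fold enrichment under 6 met no peak of replicate 2, against 19.1% of all its peaks. In replicate 2 the shares were 37.0% and 17.1%. The median fold enrichment of peaks found in 1 list was 4.61 in replicate 1 and 4.54 in replicate 2, against 8.0 and 7.80 for shared peaks.

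The libraries of RB1 KO cells, edited to lack Rb, called no HOX promoter with either treatment, and the IgG2a library called 1. Each of the RB1 KO lists called 0.00510% of all promoters. For the HOX genes 0 of 39 were called in each, which allows a share of up to 7.69%. The IgG2a list called 1.73% of all promoters, and among the HOX genes HOXA4. That peak covered 143 bp at chr7:27130879-27131021, with its summit 162 bp before the TSS of HOXA4 and in an intron of the overlapping gene HOXA3. Its fold enrichment was 4.94 with a pileup of 9, and no Rb library had a peak at HOXA4. With 1 library each, these groups had no replicate check.

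The 4 clusters together span 523 kb, and in 3 of them no HOX promoter was called in both palbociclib lists. The HOXA cluster at chr7:27092993-27200091, with 11 genes on 107 kb, had no Rb peak of any library. The HOXB cluster at chr17:48528526-48728750, with 10 genes on 200 kb, had the peaks at HOXB7 and HOXB4, each in 1 list. The HOXD cluster at chr2:176092721-176190907, with 9 genes on 98.2 kb, had the HOXD3 peak of 1 list. In the HOXC cluster at chr12:53938831-54056030, with 9 genes on 117 kb, HOXC13 was called in both lists and the 8 genes from HOXC12 to HOXC4 in neither. By paralogue group, 0 of 8 genes of groups 1 to 3, 0 of 15 of groups 4 to 8 and 1 of 16 of groups 9 to 13 were called in both lists.

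**Figure D2:**
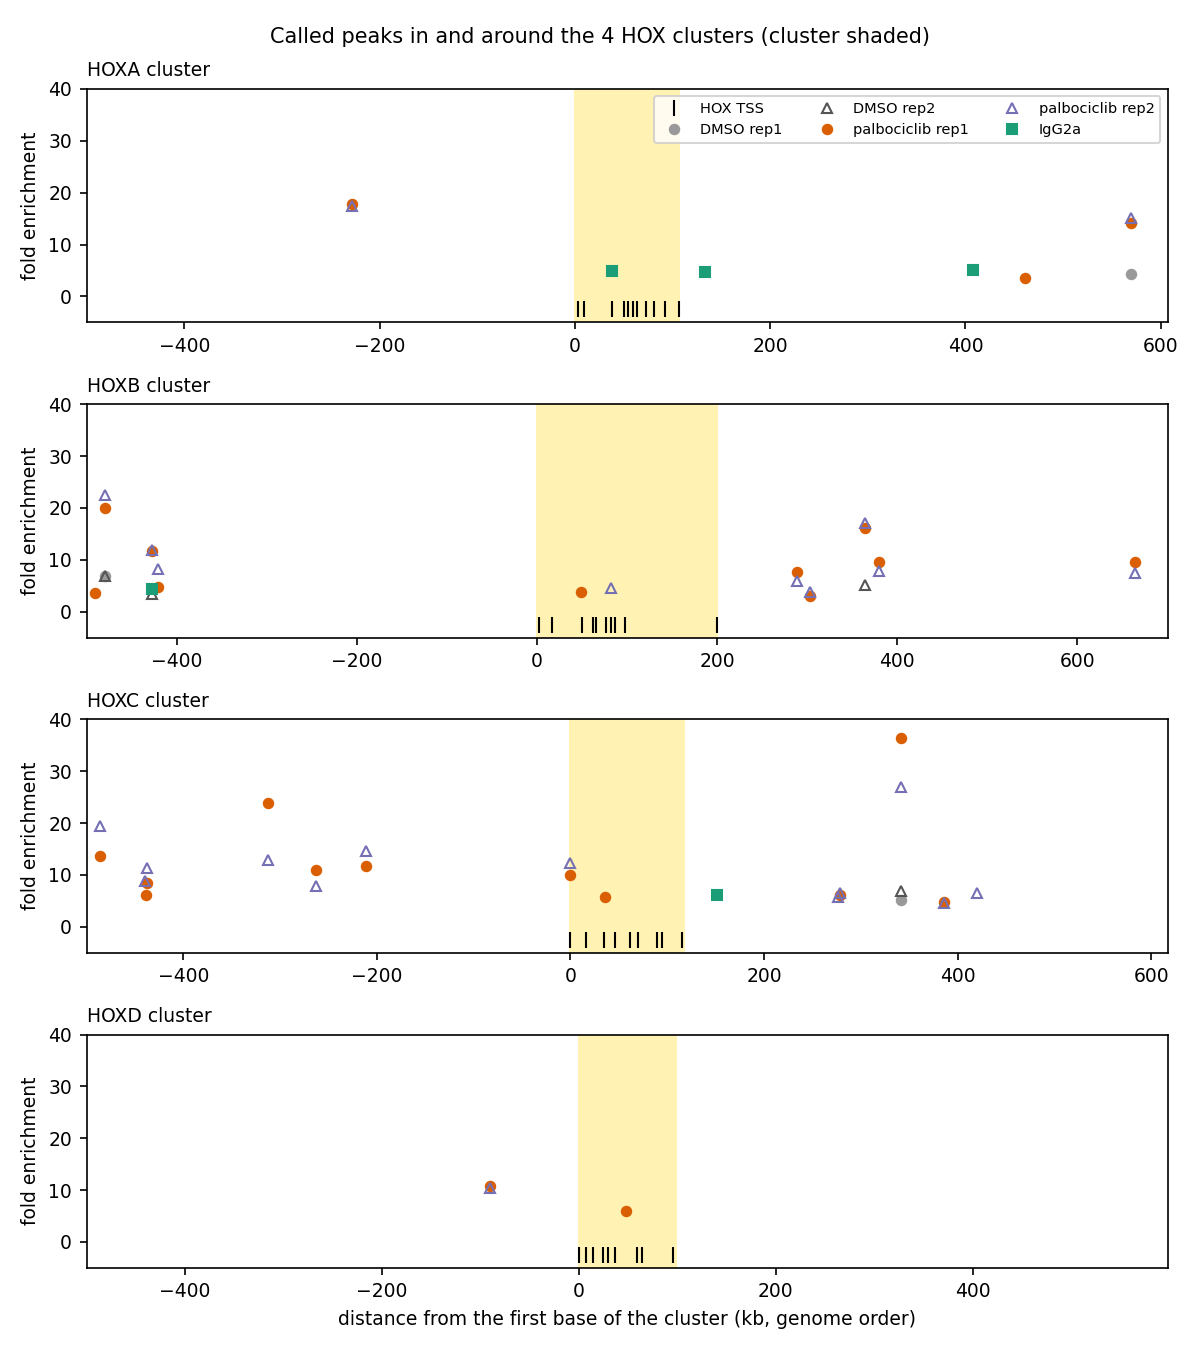
Fold enrichment (y axis) of each called peak against its distance from the first base of the HOX cluster (x axis, kb, genome order) for the 4 clusters with 500 kb to each side, with clusters shaded, TSSs as ticks and libraries by symbol. The RB1 KO lists held no peak in these regions. Pairs of palbociclib points stand outside the shaded clusters and at the HOXC13 edge at 9.94 and 12.3, while the points inside are single. Some palbociclib points outside the clusters are single too, such as 3.56 beside HOXA in replicate 1 and 6.43 beside HOXC in replicate 2.

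Around the clusters the palbociclib consensus peaks, regions called in both replicates, left long gaps. The HOXD genes lay in a gap of 1210 kb, the HOXA genes in one of 797 kb and the HOXB genes in one of 709 kb. The 8 uncalled HOXC genes lay in a gap of 278 kb that began at the HOXC13 peak. From its TSS, the median HOX gene was 191 kb from the nearest consensus peak, with a range of 0 to 335 kb. The median was 43.2 kb over all other genes and 3.35 kb over the other CpG-rich genes defined below. It was 134 kb for the other homeobox genes and 278 kb for the other developmental transcription factor genes, also taken up below. Long distances were thus not particular to HOX genes. HOXA13 was farthest at 335 kb, and HOXC12 was the nearest uncalled gene at 15.9 kb. More than 50 kb away were 35 of 39 HOX genes (89.7%), 48.0% of all other genes and 35.8% of the other CpG-rich genes. Among uncalled genes alone the medians were 196 kb for 38 HOX genes and 110 kb for the other CpG-rich genes, so their distances were less far apart. That HOX median lay within the quartiles of the uncalled CpG-rich genes, 44.1 and 272 kb. HOX genes of 1 cluster share the same gap, so these are 4 stretches of genome rather than 39 independent distances.

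**Figure D3:**
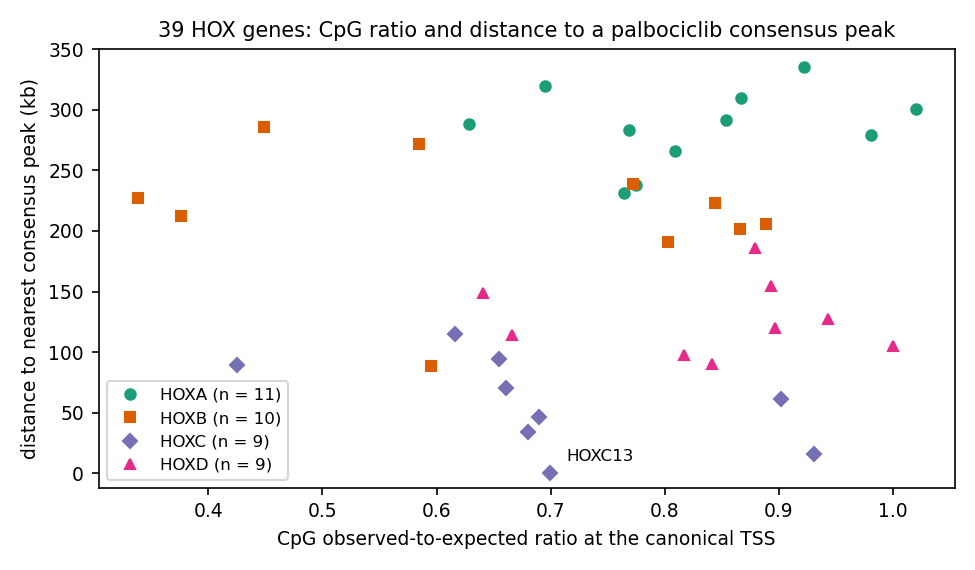
Distance from the TSS to the nearest palbociclib consensus peak (y axis, kb) against the CpG observed-to-expected ratio around the TSS (x axis) for the 39 HOX genes, with a symbol for each cluster. HOXC13 sits at 0 kb and the HOXA genes lie between 231 and 335 kb at ratios from 0.628 to 1.02.

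Genes beside the clusters were called near all 4 of them. Of 41 protein-coding genes with a TSS within 500 kb of a cluster and outside it, 20 (48.8%) were called in both palbociclib lists, beside the 34.0% of all genes. Among the 19 CpG-rich ones it was 12 (63.2%), beside 50.6% of the other CpG-rich genes of the genome. Some of these neighbours share a peak, as CBX5 and HNRNPA1 do, and no interval was taken for these counts. The neighbours were therefore not shown to be called more often than other genes. By cluster these were 2 of 3 genes near HOXA, 7 of 15 near HOXB, 10 of 20 near HOXC and 1 of 3 near HOXD.

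Of 16 named flanking genes, 9 were called in both palbociclib lists (56.2%, interval 29.9% to 80.2%). The 34.0% of all genes lies within that interval, so the count says nothing particular about these genes. Each of the 9 started 88.5 kb or more from its cluster. Those called beside HOXA were SKAP2, an adaptor protein gene, with fold enrichments of 17.8 and 17.5 in the palbociclib replicates, and HIBADH, a valine catabolism gene, with 14.2 and 15.1 and with 4.26 in DMSO replicate 1. Beside HOXB they were TTLL6 with 7.60 and 5.81 and CALCOCO2 with 2.96 and 3.87. Beside HOXD they were LNPK with 10.7 and 10.4 and, 911 kb away, ATP5MC3 with 4.48 and 6.37. LNPK codes for a protein of the endoplasmic reticulum and ATP5MC3 for a subunit of ATP synthase. Beside HOXC they were CALCOCO1 with 11.7 and 14.7, ATF7 with 23.9 and 12.9, and CBX5, which codes for the heterochromatin protein HP1 alpha and lies 224 kb away, with 36.4 and 26.9. CBX5 was also called in both DMSO lists, at 5.10 and 6.95, and its peak met the promoter of HNRNPA1 too. The homeobox genes EVX1 and EVX2, 42.7 kb and 8.76 kb from their clusters, were not called in both palbociclib lists. Nor were PRAC1 and PRAC2, which lie inside the HOXB interval, nor SKAP1, MTX2 and SMUG1 at 98.3, 78.5 and 133 kb.

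HOX promoters were about as rich in CpG as the promoters of other genes. GC content and the CpG observed-to-expected ratio were taken over 500 bp to each side of the canonical TSS. The HOX medians were 59.7% GC and a ratio of 0.775, against 61.4% and 0.727 over all other genes. Ratios ranged from 0.338 at HOXB3 to 1.02 at HOXA9, and cluster medians were 0.879 for HOXD, 0.809 for HOXA, 0.684 for HOXB and 0.680 for HOXC. The HOXC13 promoter, at 67.2% GC and 0.699, was below the HOX median ratio, and the uncalled HOXA13 promoter had 75.4% GC and 0.922.

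CpG-rich was defined as at least 55% GC and a ratio of at least 0.65, which 27 of 39 HOX genes and 11140 other genes met. Among these, 1 of 27 HOX genes (3.70%, interval 0.0937% to 19.0%) and 5633 of 11140 others (50.6%) were called in both palbociclib lists. The 12 HOX genes that were not CpG-rich had no call in both lists, beside 12.2% of the other genes of that kind. With so few genes, that absence does not set them apart from the 12.2%. Across classes of rising ratio the share of other genes called went from 2.76% below 0.2 to 4.59%, 15.3%, 41.4%, 53.3% and 59.9% at 1.0 and over. The HOX genes were at 0 of 2, 0 of 4, 1 of 14, 0 of 17 and 0 of 2 in the classes from 0.2 upward. HOXA9 and HOXD11, the pair in the top class, were thus uncalled where 59.9% of other genes were called. With only 2 genes, that absence does not set them apart. With the ratio raised to 0.75, 0 of 21 HOX genes and 53.3% of others were called, and with CpG content taken over the whole promoter window it was 0 of 12 and 58.4%.

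**Figure D4:**
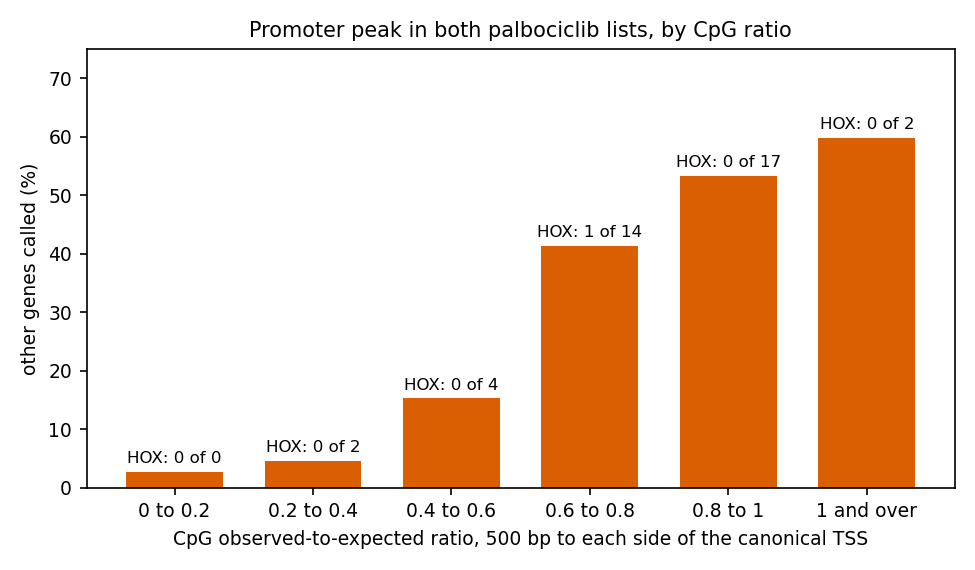
Share of other protein-coding genes with a promoter peak in both palbociclib lists (y axis, %) by class of CpG observed-to-expected ratio (x axis), with the number of HOX genes called above each bar. Bars climb from 2.76% to 59.9%, and 1 HOX gene, HOXC13 in the class from 0.6 to 0.8, was called.

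By bases rather than genes the difference was of the same kind. Palbociclib consensus peaks covered 627 bp of 140 kb of HOX promoter (0.447%), 4.53% of the promoter bases of all other genes and 6.57% of those of the other CpG-rich genes.

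Other genes of developmental regulators were also called at low shares, and genes that act on HOX clusters at higher ones. Of 116 other homeobox genes, 14 were called in both palbociclib lists (12.1%, interval 6.76% to 19.4%), beside 34.0% of all genes. The highest were IRX3 with fold enrichments of 20.2 and 19.1, OTX1 with 18.7 and 13.8, and ONECUT2 with 13.7 and 13.2. IRX3 also had a peak in DMSO replicate 1, at 5.71. Of 79 other developmental transcription factor genes, 7 were called (8.86%, 3.64% to 17.4%), led by FOXD2 with 14.6 and 17.4, TBX3, a T-box factor of the mammary gland, with 11.7 and 12.4, and GLI3, an effector of Hedgehog signalling, with 12.3 and 9.74. Within the CpG-rich promoters the shares were 13.3% of 90 and 11.3% of 62. The HOX interval overlapped those of both lists, so the HOX share of 2.56% was not shown to differ from them. None of these genes was called in both DMSO lists.

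HOX proteins bind DNA with partner homeodomain proteins of the PBX, MEIS and PKNOX families, whose 11 genes had 3 calls in both palbociclib lists (27.3%, interval 6.02% to 61.0%). That share is near the 34.0% of all genes, which lies within the interval, so it says nothing particular about these genes. PKNOX1 had fold enrichments of 19.7 and 25, and 6.18 in DMSO replicate 2. PBX3 had 6.14 and 8.36, and MEIS2 4.08 and 4.68.

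Of 40 genes for Polycomb and Trithorax proteins, 31 were called in both palbociclib lists (77.5%, interval 61.5% to 89.2%) and 4 in both DMSO lists (10.0%, interval 2.79% to 23.7%, beside 2.75% of all genes). EZH2, the methyltransferase that writes the Polycomb mark, had fold enrichments of 41.7 and 43.6 with palbociclib and 13.5 and 10.1 with DMSO. PHF1, an accessory Polycomb protein, had 46.1 and 38.2 with palbociclib and 8.58 and 11.9 with DMSO. ASH2L, a shared subunit of Trithorax-type methyltransferases, had 36.7 and 33.7 with palbociclib and 8.44 and 6.89 with DMSO. Of the 32 genes of this list with CpG-rich promoters, 24 were called in both palbociclib lists (75%, interval 56.6% to 88.5%). The share of the other CpG-rich genes was 50.6%. In both DMSO lists 3 of the 32 were called (9.38%). The 4.16% of the other CpG-rich genes lies within the interval of that share, so a difference with DMSO was not shown. With palbociclib, the genes for these regulators were thus called at a share above the 34.0% of all genes, and the HOX genes at one below it.

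**Figure D5:**
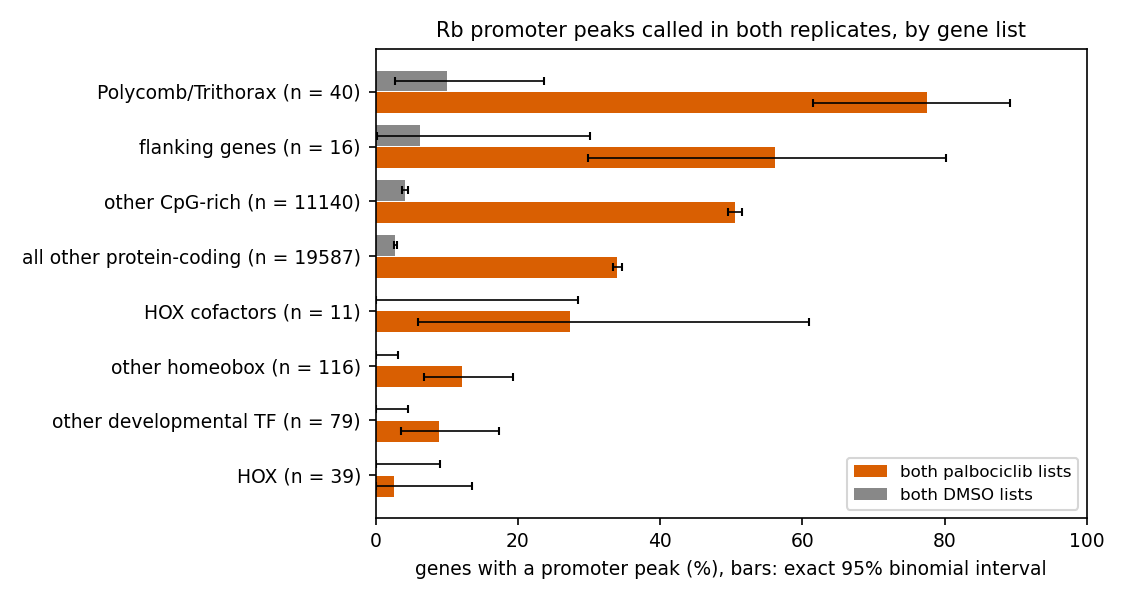
Share of genes with a promoter peak in both replicates (x axis, %) for each gene list (y axis), in the palbociclib lists and in the DMSO lists, with exact 95% binomial intervals as error bars. The palbociclib bars run from 77.5% for Polycomb and Trithorax genes to 2.56% for HOX genes, and the DMSO bars stay at 10.0% or below.

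The HOX promoter sequences held none of the E2F, ETS or NRF1 words searched, and the CCAAT box in most. Motifs were searched on both strands from 250 bp before to 50 bp after the canonical TSS. None of these words contains another, though matches can overlap in part. The E2F words TTTCCCGC, TTTCGCGC, TTTGCCGC and TTTGGCGC were found at 0 of 39 HOX genes, 4.38% of all other genes and 7.60% of the other CpG-rich genes called in both palbociclib lists. The ETS word CCGGAAGT was found at 0 of 39 HOX genes and at 6.14% and 8.77% of those gene sets. The NRF1 core GCGCATGC was found at 0 of 39 and at 4.25% and 6.98%. A share of 0 of 39 allows up to 7.69%, so these absences do not separate the HOX genes from the 4.25% to 6.14% of all other genes. The words do not mark called promoters alone, since CpG-rich genes without a call held them at 3.67%, 7.45% and 4.72%.

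The SP/KLF word GGGCGG was at 18 of 39 HOX genes (46.2%), 61.7% of all other genes and 83.4% of the other CpG-rich genes. The word CCAAT was at 29 of 39 HOX genes (74.4%), 36.0% of all other genes, 34.1% of the other CpG-rich genes and 61.2% of the other homeobox genes. The cell cycle homology region word TTTGAA was at 9 of 39 HOX genes (23.1%) and 11.4% of all other genes. The word TGATTNAT, bound by PBX with HOX proteins, was at 3 of 39 (7.69%) and 1.89%. The cyclic AMP response element TGACGTCA was at 1 of 39 (2.56%), in HOXC10, and 2.73%.

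Over this window, which reaches beyond the bases printed above, HOXD13 and HOXA13 each held 1 CCAAT match, and 2 and 4 matches to GGGCGG. A match is a run of letters and was not tested as a binding site.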

How the data were processed

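CUT&RUN peak lists of 7 ZR-75-1 libraries were analysed, grouped by their titles. According to the methods, reads were trimmed by the authors (BBDuk) and mapped to hg38 (Bowtie2 2.3.4.1). Mitochondrial reads and those in blacklisted regions were taken out, duplicates stayed in, and MACS2 2.2.7.1 called peaks library by library at q 0.05, with matched IgG controls. The control of the IgG2a list is not given in the sources used here. The deposited values of each peak were a display score, the fold enrichment (a ratio of pileup to background) and −log10 p and −log10 q. The score was not used for ranking or tests. Fragments were not deduplicated, so pileups are not counts of independent molecules.

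Peaks on chromosomes 1 to 22 and X were set against GENCODE 44 on hg38 with Python 3.11.15, pandas 2.3.3, numpy 2.4.6 and scipy 1.17.1. A promoter ran from 2000 bp before to 500 bp after any protein-coding TSS, and an overlap of 1 bp made a call. A consensus peak joined regions called in both replicates. Pileup and background were solved from the fold enrichment and −log10 p of each peak, where −log10 p was off by at most 0.000581 and 15 peaks had no solution. The lowest background in a list, which scales with its sequenced fragments, lay between 0.465 and 0.571 in the 4 parental Rb lists. The scripts were tested on simulated data. Parental groups were compared by a two-sided exact permutation test over libraries. Its p is the share of splits of these libraries with a mean difference at least as large as the one seen. Shares carry exact (Clopper-Pearson) 95% intervals, and a share of 0 the limit that 3 counts allow. RB1 KO and IgG2a, with 1 library each, were not tested. Alternatives covered the promoter window, the TSSs used, the peak threshold, list length, consensus rule, CpG definition, replicate block and each replicate left out. Every HOX gene was accounted for, those called in both palbociclib lists with values in each library, and other lists by the 3 members of highest mean fold enrichment. The members and gene lists, which are not published sets, were chosen with earlier results of these data known. The sequences of some HOX promoters are not reported here.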

Additional observations from a re-analysis of the deposited data

How the results depend on the processing

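Of 99 values recomputed under alternatives, 91 stayed the same by the measure set for each (1.5 times for counts, the interval for shares, the side of the test for differences), 7 moved further, 1 was weaker and 0 reversed. The weaker one was the difference in HOX promoters with lists of equal length, which went to 0. The difference in other cluster peaks, counted among the 7, also went to 0 without palbociclib replicate 1. Many of the 91 were counts of 0 under stricter rules, which can only remove calls. Those counts could only stay at 0, so the tally is no measure of how robust the results are. With parental lists of equal length, the difference in HOX promoters called between palbociclib and DMSO was 0 (exact permutation p = 1.00), and 0 HOX genes, 0 of them in the HOXC cluster, were called in both palbociclib lists. With all libraries at 0 that p was fixed, so the test could not decide. Leaving out 1 replicate at a time, the difference in HOX promoters called ranged from 1 to 2 and that in other cluster peaks from 0 to 3. The HOX genes called with palbociclib ranged from 1 to 2, and those of HOXB from 0 to 1. Without palbociclib replicate 1 there were 2 HOX genes, 1 of HOXB, and the difference in other peaks was 0. With a palbociclib replicate left out 1 list remained, so these were calls in 1 list and not consensus peaks. The HOXB gene was HOXB7. The share of other CpG-rich genes called was 53.3% with a CpG ratio of at least 0.75 and 58.4% with CpG content over the promoter window.

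Same-numbered replicates share only a number, with 2 pairs and nothing in the labels that ties them. With a replicate block the difference in HOX promoters stayed 1.5 (exact sign-flip p = 0.5, the smallest that 2 pairs allow) and that in other cluster peaks 1.5 (exact p = 1.00). The p for other cluster peaks was fixed, since 1 library alone held such peaks. With TSSs of all transcripts of a gene, an alternative chosen after seeing the data, HOXB3 was also called in palbociclib replicate 1. The 4 HOX clusters hold few promoters, and lists without signal at uncalled sites cannot show weak binding there.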
